A study of Homo sapiens with 8 samples.

Results

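The 9 genes described here encode complement components and their regulators: *C1R*, *C1S*, *C3*, *C5*, *CFB*, *SERPING1*, *CD46*, *CD55* and *CD59*. They were picked by symbol, whatever their level, from the 60664 genes of a count table of A549 cells, an established human lung adenocarcinoma line of epithelial origin. The table holds 8 RNA-seq libraries in 4 groups of 2. Untreated cells received neither agent. A second group received AX-0085 to 0.5 μM, an agent known by its code name that the study treats as an inhibitor of signalling by interferon-γ (IFN-γ). Another group received IFN-γ, a cytokine that signals through the kinases JAK1 and JAK2. Its dose is 20 ng in the labels, without a volume, and 20 ng/mL in the paper's methods. In the last group IFN-γ came first, AX-0085 followed 24 h later, and cells were harvested 24 h after that. The same times, 24 h before and 24 h after the AX-0085 step, are listed for all 4 groups. As listed, the groups were thus matched in time, including those that lacked an agent. All groups are 1 cell line, with no donors or clones to compare, and the labels do not say whether the libraries of a group came from separate cultures. The p-values below therefore measure the spread between these libraries, which may be technical.

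Complement is a cascade of plasma proteins that mark cells and microbes for destruction. In the classical pathway the protease C1r activates the protease C1s, which cleaves C4 and C2 to form an enzyme that cuts C3. In the alternative pathway factor B (CFB) supplies the protease of a second such enzyme. Both routes lead to cleavage of C5 and to a pore in the target membrane, and host cells restrain them with the C1 inhibitor (SERPING1) in fluid and with CD46, CD55 and CD59 on their surface. The liver makes most plasma complement, and epithelial cells of the lung make some of it locally.

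All 9 genes had at least 1 count, and 8 of them passed the filter on low counts. *CFB* had 1 count over the 8 libraries and was not tested. *SERPING1*, with 0 to 4 counts in libraries without IFN-γ, passed the filter only through the groups with IFN-γ. Its calls as higher with IFN-γ, and its part in the member counts and medians below, are therefore tied to the filter. Of the 8 tested, IFN-γ raised *SERPING1*, *C1R*, *C1S*, *CD55* and *C3* and lowered *C5*, as judged by an adjusted p under 0.05 and a change of at least 2-fold. The 5 that rose stand beside 10.3% of all 15066 tested genes called higher in that comparison, and the 1 that fell beside 17.2% called lower. With AX-0085 on top of IFN-γ, *C1R*, *SERPING1*, *C1S*, *CD59* and *CD55* were lower than with IFN-γ alone and *C5* was higher, beside 8.28% and 16.5% of all genes called lower and higher. These comparisons share the IFN-γ libraries. In bulk RNA, fewer cells that express a gene and less of its RNA per cell cannot be told apart.

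Total counts ran from 20672828 to 29978251 per library, and 3 counts corresponded to between 0.0959 and 0.158 CPM (counts scaled by depth, here with TMM factors of 0.916 to 1.04). All such limits cover counting error only. All 6 epithelial markers were detected in each group, with summed levels between 5759 and 9550 CPM. Of 5 leukocyte markers, *CD3E* and *CD68* had no count in any library, and the list summed to at most 0.159 CPM. The epithelial sum was highest untreated, from 8821 CPM, and lowest with AX-0085 alone, up to 6089 CPM, and the sum of 3 fibroblast markers was 2.97 to 4.59 CPM with IFN-γ alone against 9.03 to 10.8 CPM untreated, with *COL1A2* at 0 counts throughout. Single epithelial markers moved further with IFN-γ: *EPCAM* stood at 0.110 times its untreated level, *KRT19* at 0.224, *CDH1* at 0.301, *KRT8* at 0.380 and *KRT18* at 0.471, and *KRT7* at 1.67. Mitochondrial genes took 1.71% and 1.82% of the counts with IFN-γ alone, 2.72% and 3.55% untreated, 2.87% and 3.43% with both agents, and 4.12% and 5.73% with AX-0085 alone. The part of these shifts in the results below was not tested. The response to the treatments was visible in *GBP1* and *CD274*, both induced by IFN-γ, which had log2 changes of 11.49 and 5.31 with IFN-γ, and of −7.13 and −3.73 once AX-0085 was added. Untreated, *GBP1* had 4 and 2 counts and *CD274* 3 and 5, so the sizes of the IFN-γ changes are imprecise. Both genes passed the filter on low counts only through the groups with IFN-γ, so their rise is tied to that filter.

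**Figure D1:**
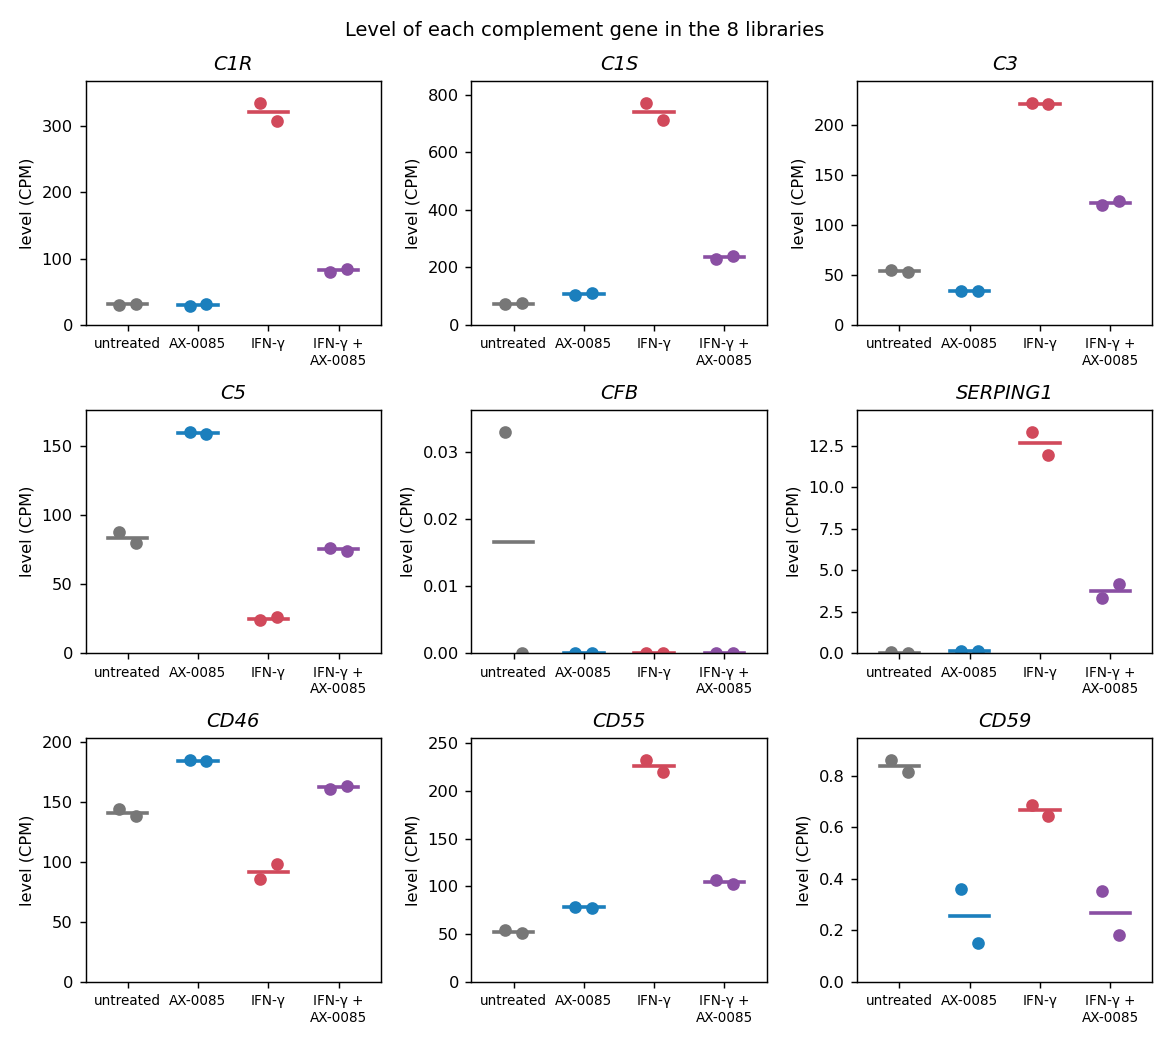
Level in CPM (vertical axes, each from 0) of the complement genes in the 4 treatment groups (horizontal axes), with a point for each of the 2 libraries of a group and a bar at their mean. *C1R*, *C1S*, *C3*, *CD55* and *SERPING1* peak with IFN-γ alone, where *C5* and *CD46* are lowest.

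The C1 proteases *C1R* and *C1S* lie 9.18 kb apart on chromosome 12 and had the steepest rise of the well-counted members. *C1R* (ENSG00000159403, GRCh38 chr12:7080214-7092540, minus strand) stood at 30.2 and 32.1 CPM in untreated cells, 28.7 and 31.9 under AX-0085, 335 and 308 under IFN-γ and 79.6 and 84.6 under both. The libraries with IFN-γ alone were far above all others, those with both agents lay between, and untreated and AX-0085 libraries overlapped. With IFN-γ *C1R* rose by 3.37 on the log2 scale (SE, standard error, 0.07, 10.3-fold, edgeR quasi-likelihood test with Benjamini-Hochberg adjustment, adjusted p = 9.27e-13). Addition of AX-0085 to IFN-γ gave a log2 change of −1.97 (SE 0.07, edgeR adjusted p = 6.54e-11). AX-0085 alone gave −0.038 (95% interval −0.20 to 0.13, edgeR adjusted p = 0.704).

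*C1S* (ENSG00000182326, chr12:6988259-7071032, plus strand) was at 71.1 and 75.9 CPM untreated, 105 and 111 under AX-0085, 770 and 711 under IFN-γ and 229 and 240 under both. No 2 groups overlapped, in the order untreated, AX-0085, both, IFN-γ. The IFN-γ change was 3.33 on the log2 scale (SE 0.07, 10.1-fold, edgeR adjusted p = 6.00e-13), close to that of *C1R*. AX-0085 added to IFN-γ changed *C1S* by −1.66 (SE 0.06, edgeR adjusted p = 1.61e-10). Unlike *C1R*, *C1S* was higher with AX-0085 alone by the adjusted p, by 0.56 on the log2 scale, which is short of 2-fold (SE 0.07, edgeR adjusted p = 1.21e-05).

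*SERPING1* (ENSG00000149131, chr11:57597387-57619171, plus strand), which encodes the inhibitor of both C1 proteases, went from near absence to a moderate level. It had 2 and 0 counts untreated, 3 and 4 under AX-0085, 253 and 297 under IFN-γ and 104 and 93 under both. The untreated and AX-0085 libraries lay close to the detection limit, and both IFN-γ groups lay well above. Set against the 2 counts of the untreated group, the IFN-γ group was 344-fold higher, with an exact counting interval of 94.7 to 2846 (95%), and the group with both agents 100.8-fold higher, with an interval of 27.5 to 838. The fitted IFN-γ change, 8.25 on the log2 scale (SE 0.35, edgeR adjusted p = 2.56e-10), moved with the 2 untreated libraries. It was 7.48 without untreated replicate 2 and 11.31 without untreated replicate 1. AX-0085 alone, with 7 counts against 2, gave a ratio of 3.71 with an exact counting interval of 0.706 to 36.6, and its log2 change of 1.76 did not pass (edgeR adjusted p = 0.143). Between the IFN-γ groups, where counts were ample, AX-0085 changed *SERPING1* by −1.76 (SE 0.16, edgeR adjusted p = 5.43e-07), from 12.7 ± 1.01 CPM to 3.75 ± 0.605 (SD, n = 2).

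*C3* and *C5*, the substrates of the convertases, moved in opposite directions. *C3* (ENSG00000125730, chr19:6677704-6730562, minus strand) stood at 54.9 and 53.4 CPM untreated, 34.3 and 33.8 under AX-0085, 222 and 222 under IFN-γ and 120 and 124 under both. The groups did not overlap, and the 2 libraries of each were close. IFN-γ raised *C3* by 2.04 on the log2 scale (SE 0.06, 4.10-fold, edgeR adjusted p = 5.88e-12). AX-0085 was followed by lower *C3* both without IFN-γ, by −0.67 (SE 0.06, edgeR adjusted p = 8.12e-07), and with it, by −0.86 (SE 0.05, edgeR adjusted p = 1.30e-08). Both changes passed the adjusted p and neither reached 2-fold.

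*C5* (ENSG00000106804, chr9:120932987-121075195, minus strand) went the opposite way. Its levels were 88.1 and 79.7 CPM untreated, 161 and 159 under AX-0085, 24.1 and 26.0 under IFN-γ and 76.4 and 74.4 under both. AX-0085 libraries were highest and IFN-γ libraries lowest, with those of both agents just under the untreated ones. With IFN-γ *C5* fell by 1.74 on the log2 scale (SE 0.07, edgeR adjusted p = 2.16e-10), and with AX-0085 added it rose again by 1.59 (SE 0.07, edgeR adjusted p = 7.23e-10). The group with both agents differed from untreated cells by −0.15 (95% interval −0.30 to −0.01, edgeR adjusted p = 0.0618). AX-0085 alone gave 0.93 (SE 0.06, edgeR adjusted p = 1.07e-07), just short of 2-fold, and 1.02 without untreated replicate 1.

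*CFB* (ENSG00000243649, chr6:31945650-31952086, plus strand), the protease of the alternative pathway, had 1 count in untreated replicate 1 and 0 in the other 7 libraries. IFN-γ induction of *CFB* was thus not detectable in this table, where 0 counts allow a level of up to 0.158 CPM in the shallowest library. A limit of the counting touches this value. In the GENCODE 44 annotation, 2249 of the 2476 bases of its main transcript (90.8%) lie inside exons of ENSG00000244255, a gene model that spans *C2* and *CFB* and that had 0 counts in all 8 libraries. Counters that drop reads shared by overlapping genes would drop reads there. The setting used is not given in the sources used here, and its part in the low count was not tested. *C2* itself, the neighbour and functional counterpart of *CFB* in the classical pathway, had between 14 and 39 counts per library. The same limit applies to it, since 1824 of the 2610 bases of its main transcript (69.9%) lie inside exons of other genes, mainly that same model.

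The 3 membrane regulators, which protect host cells from their own complement, did not move together. *CD55* (ENSG00000196352, chr1:207321519-207386804, plus strand), which speeds the decay of convertases, stood at 54.0 and 51.1 CPM untreated, 78.9 and 77.2 under AX-0085, 232 and 220 under IFN-γ and 106 and 103 under both. The 4 groups were separate, with untreated libraries lowest and IFN-γ libraries highest. With IFN-γ *CD55* rose by 2.11 on the log2 scale (SE 0.06, 4.30-fold, edgeR adjusted p = 8.44e-12), and AX-0085 added to IFN-γ changed it by −1.11 (SE 0.06, edgeR adjusted p = 2.42e-09). The second change was −0.99, under 2-fold, when counts were scaled by library size alone. AX-0085 without IFN-γ went the other way, by 0.57 (SE 0.06, edgeR adjusted p = 4.36e-06), short of 2-fold.

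*CD46* (ENSG00000117335, chr1:207752037-207795513, plus strand), a cofactor for the cleavage of C3b and C4b, lies in the same cluster of regulator genes, 365 kb from *CD55*. It was at 144 and 138 CPM untreated, 185 and 184 under AX-0085, 85.2 and 98.3 under IFN-γ and 161 and 163 under both. The order of the groups was IFN-γ, untreated, both, AX-0085 from low to high, without overlap. Its IFN-γ change of −0.62 (SE 0.07, edgeR adjusted p = 2.43e-06) and its change of 0.82 when AX-0085 joined IFN-γ (SE 0.07, edgeR adjusted p = 1.93e-07) passed the adjusted p alone. The AX-0085 change without IFN-γ was 0.39 (SE 0.06, edgeR adjusted p = 0.000250).

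*CD59* (ENSG00000085063, chr11:33703010-33736479, minus strand), which blocks the membrane pore, had few counts, so its ratios are imprecise. It had 26 and 20 counts untreated, 9 and 4 under AX-0085, 13 and 16 under IFN-γ and 11 and 4 under both, or 0.151 to 0.860 CPM. Libraries without AX-0085 all lay above those with it. The log2 change with AX-0085 was −1.72 without IFN-γ (SE 0.44, edgeR adjusted p = 0.00488) and −1.23 with it (SE 0.46, edgeR adjusted p = 0.0308). By the DESeq2 Wald test neither passed, with adjusted p = 0.0516 and adjusted p = 0.140. Without AX-0085 replicate 2 the first was −1.21 (edgeR adjusted p = 0.0719), and the second lost its call when any of IFN-γ replicates 1 and 2 or the second library with both agents was left out (edgeR adjusted p = 0.0869, 0.0853 and 0.166) or when counts were scaled by library size alone (edgeR adjusted p = 0.0510). The IFN-γ change was −0.34 (95% interval −1.14 to 0.46, edgeR adjusted p = 0.438). Its main transcript shares 625 of 7563 bases (8.26%) with exons of another gene model, ENSG00000284969, which had 0 to 3 counts per library. The handling of shared reads is not given, and its part in the low counts of *CD59* was not tested.

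Exon overlaps touch some other members as well. *C1R* shares 628 of the 2488 bases of its main transcript (25.2%) with *C1RL* on the same strand, and *CD46* 198 of 3320 (5.96%) with the antisense transcript *MIR29B2CHG*, which had at most 40 counts per library. The main transcripts of *C3*, *C5*, *C1S*, *SERPING1* and *CD55* share none with other genes of the count table. *C1RL* did not follow *C1R*: it was at 23.0 and 20.4 CPM untreated, 58.8 and 60.6 under AX-0085, 24.1 and 26.1 under IFN-γ and 61.2 and 58.1 under both.

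AX-0085 alone called 1 of the 8 tested members, *CD59*, which was lower, beside 5.62% of all genes lower and 6.41% higher. By the adjusted p alone, the members that passed numbered 7 with IFN-γ beside 68.1% of all genes, 6 with AX-0085 beside 53.3%, and 8 for AX-0085 added to IFN-γ beside 66.5%. With both agents they numbered 7 against AX-0085 beside 34.7%, 7 against untreated cells beside 56.9%, and 6 in the interaction beside 50.3%. The median log2 change of the 8 members was 0.47 with AX-0085 alone, against 0.01 for all genes. With IFN-γ the median was 2.07 against −0.06, and for AX-0085 added to IFN-γ it was −1.17 against 0.03.

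The effect of IFN-γ in the presence of AX-0085 was measured by setting the libraries with both agents against those with AX-0085 alone. Cells with both agents had IFN-γ for 24 h before AX-0085. RNA raised or lowered in that time cannot be told apart here from a response under AX-0085. *SERPING1* rose by 4.73 on the log2 scale, *C3* by 1.84, *C1R* by 1.44 and *C1S* by 1.12, and *C5* fell by 1.08. *CD55* was at 0.42 (edgeR adjusted p = 0.000142), short of 2-fold, and *CD59* at 0.14 (edgeR adjusted p = 0.866). *CD46* was at −0.19 with an edgeR adjusted p of 0.0403, which became 0.0530 with RLE size factors, 0.0820 with DESeq2, 0.0894 with library size alone and 0.0567 with a replicate block. It reached 0.280 without the first library with both agents, and was also above 0.05 without untreated replicate 1, either AX-0085 library or the second library with both agents. The 4 members called higher stand beside 1.79% of all genes called higher, and the 1 called lower beside 1.73%. In the same comparison *GBP1* gave 5.23 and *CD274* 0.82 (edgeR adjusted p = 0.235). With AX-0085 alone *GBP1* had 2 and 1 counts and *CD274* 3 and 10, so both values are imprecise. *C3* was thus higher by 3.59-fold with IFN-γ in cells that also received AX-0085.

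Against untreated cells, the libraries with both agents had higher *SERPING1* by 6.49 on the log2 scale, *C1S* by 1.67, *C1R* by 1.40 and *C3* by 1.17, beside 7.51% of all genes called higher. *CD59* was lower, with a log2 change of −1.57 (edgeR adjusted p = 0.00639), beside 7.23% called lower. This call for *CD59* was lost with DESeq2, where the adjusted p was 0.0687, and without the second library with both agents, where the edgeR adjusted p was 0.0603. *CD55* was at 0.99 (SE 0.06, edgeR adjusted p = 1.86e-08), just under 2-fold. It came to between 1.01 and 1.07 when untreated replicate 1, IFN-γ replicate 2 or either library with both agents was left out, and was then called.

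**Figure D2:**
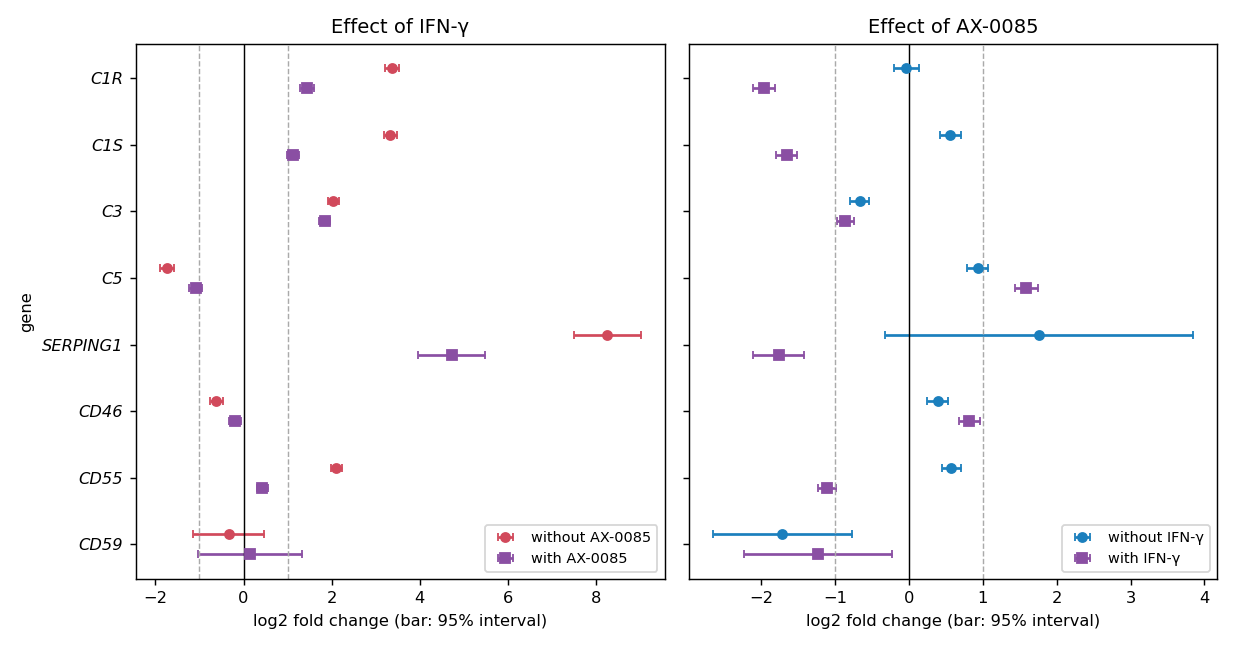
Log2 fold change (horizontal axes) of each tested complement gene (vertical axes) in the comparisons named in the panels, with bars for the 95% interval of the edgeR fit and dashed lines at 2-fold. The IFN-γ changes of *C1R*, *C1S*, *CD55* and *SERPING1* are smaller in the presence of AX-0085, and that of *C3* is 1.84 against 2.04. The falls of *C5* and *CD46* are also smaller there.

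Whether AX-0085 altered the response to IFN-γ was tested with the interaction, which is the log2 effect of IFN-γ with AX-0085 minus its effect without. The limit set by the 24 h of IFN-γ before AX-0085 applies here too. *SERPING1* gave −3.53 (SE 0.98, edgeR adjusted p = 0.00936), *C1S* −2.22 (SE 0.09, edgeR adjusted p = 2.07e-09), *C1R* −1.93 (SE 0.10, edgeR adjusted p = 1.35e-08) and *CD55* −1.68 (SE 0.08, edgeR adjusted p = 7.40e-09). These 4 members with a lower value stand beside 6.46% of all genes, and no member was called higher, beside 12.1%. The *SERPING1* value was −3.35 with an edgeR adjusted p of 0.0608 without AX-0085 replicate 2. *C5* and *CD46* passed the adjusted p with 0.66 and 0.43, short of 2-fold. For *C3* the interaction was −0.19 (95% interval −0.36 to −0.02, edgeR adjusted p = 0.0587), so that a difference of up to 0.36 on the log2 scale lies within the interval. Whether the interaction of *C3* differs from that of other members was not tested. *CD59* was at 0.48 (95% interval −0.96 to 1.92, edgeR adjusted p = 0.572), a wide interval that follows from its few counts.

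Ratios of members within a library do not depend on the scaling between libraries. They were taken for 3 pairs, chosen after their values were seen, on levels per kb of main transcript. *C1S* over *C1R* was 2.19 ± 0.0106 in untreated cells, 2.14 ± 0.00667 under IFN-γ, 3.32 ± 0.117 under AX-0085 and 2.65 ± 0.0226 with both (SD, n = 2). Without AX-0085 the ratio was much the same with and without IFN-γ. In the AX-0085 groups it was higher, and higher in the libraries without IFN-γ than in those with it, which did not overlap. *CD55* over *CD46* went from 0.478 ± 0.00455 untreated to 3.18 ± 0.442 under IFN-γ and was 0.543 ± 0.00696 under AX-0085 and 0.828 ± 0.0278 under both. *CD46* was the more abundant of the pair in every group except IFN-γ alone, where the order turned. *C3* over *C5* went from 0.676 ± 0.0354 to 9.28 ± 0.515 under IFN-γ and was 0.222 ± 0.000870 under AX-0085 and 1.69 ± 0.0681 under both. Since the pairs were picked for these differences, the ratios are given with no test.

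**Figure D3:**
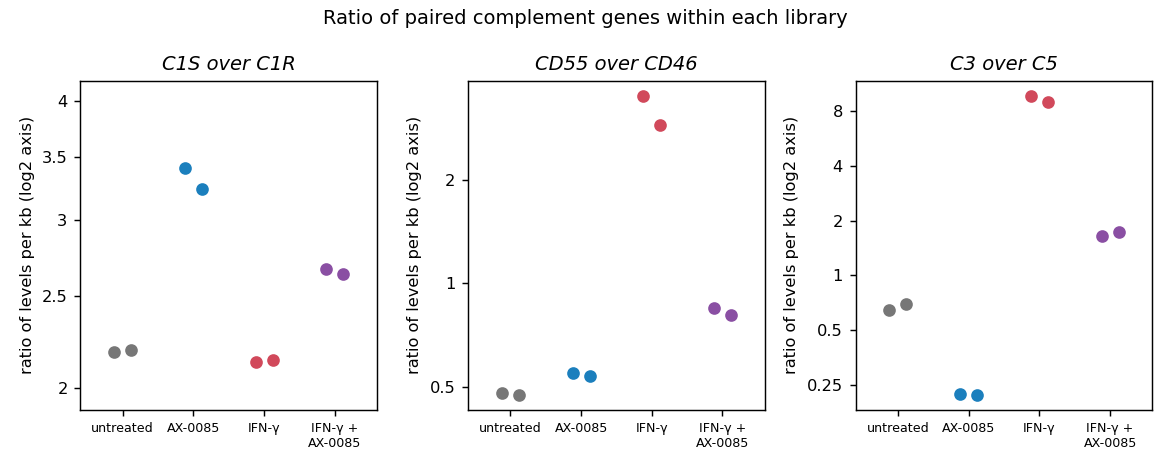
Ratio of levels per kb of main transcript (vertical axes, log2 scale) for *C1S* over *C1R*, *CD55* over *CD46* and *C3* over *C5* in the 4 groups (horizontal axes), with a point for each library. *CD55* over *CD46* exceeds 1 with IFN-γ alone, and *C1S* over *C1R* is higher in both groups with AX-0085.

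The order of the members' levels, per kb of main transcript, changed with treatment. In untreated cells it was *CD46* at 42.4 CPM per kb, *C1S* at 27.4, *CD55* at 20.3, *C5* at 15.3, *C1R* at 12.5 and *C3* at 10.4, followed at a distance by *CD59* at 0.111. *SERPING1* and *CFB*, at the bottom, overlapped between their libraries, and all other neighbours were separate. The part of exons shared with other gene models in the low values of *CD59* and *CFB* was not tested. With IFN-γ the order was *C1S* at 276 CPM per kb, *C1R* at 129, *CD55* at 87.4, *C3* at 42.4, *CD46* at 27.6, *SERPING1* at 6.91 and *C5* at 4.58. With AX-0085 alone *CD55* and *C5* were almost level, at 30.1 ± 0.479 and 29.3 ± 0.212 CPM per kb (SD, n = 2).

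Promoter windows from RefSeq (GRCh38.p14, 250 bases before to 50 after a start site) matched 6 of the 9 members, with 12 windows. Those of *C1R* and *CD55*, which rose with IFN-γ, of *CD46*, the neighbour of *CD55* that did not, and of *CFB*, which had almost no counts, are shown up to the next annotated exon. For *CFB* this stretch begins inside the annotated gene, after the first exon of a transcript that starts farther upstream. They cover chr12:7092541-7092695 on the minus strand for *C1R* and, on the plus strand, chr1:207321428-207321518 for *CD55*, chr1:207751788-207752036 for *CD46* and chr6:31945845-31945974 for *CFB*. Capitals mark a match to the interferon-stimulated response element.
C1R: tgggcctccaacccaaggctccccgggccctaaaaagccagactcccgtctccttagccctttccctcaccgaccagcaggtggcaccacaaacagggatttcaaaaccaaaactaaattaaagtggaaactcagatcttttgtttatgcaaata
CD55: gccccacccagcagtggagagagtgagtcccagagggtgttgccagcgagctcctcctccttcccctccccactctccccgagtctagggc
CD46: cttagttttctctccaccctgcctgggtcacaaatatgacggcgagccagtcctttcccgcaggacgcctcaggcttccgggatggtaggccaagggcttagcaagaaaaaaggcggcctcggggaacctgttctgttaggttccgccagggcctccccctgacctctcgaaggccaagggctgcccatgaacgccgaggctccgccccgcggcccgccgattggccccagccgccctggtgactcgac
CFB: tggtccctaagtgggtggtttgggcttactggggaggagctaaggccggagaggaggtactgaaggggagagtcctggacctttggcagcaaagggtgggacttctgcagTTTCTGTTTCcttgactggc
Both strands of all windows were searched for the interferon-γ-activated site GAS, spelled TTCNNNGAA and held by 7.66% of 35116 RefSeq windows, for the interferon-stimulated response element, read as GAAA, any 2 bases and GAAA again and held by 3.57%, and for the NF-κB motif, held by 11.3%. Within a window, matches did not overlap. The *CFB* window held a match to each motif, with the match in capitals at −140 from the start site, an NF-κB match at −112 and the GAS letters TTCCGGGAA at −92. A second *C1R* window held TTCCTGGAA at −86. Overlapping windows of *CD59* held the same TTCTCAGAA bases, at −128 and −184 of their start sites, and the other *CD59* windows held no match. No match was found in the windows of *CD55*, *CD46* and *C5* or in the *C1R* stretch printed. Such matches describe the letters in these windows only.

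Of 54 other complement genes, 11 had no count in any library, 20 had counts too low to test and 23 were tested. None of the 6 terminal components of the pore was tested, and the genes left untested had at most 54 counts summed over the 8 libraries. IFN-γ called 2 of the 23 higher and 6 lower, beside the shares for all genes given above. Those higher were *C4A* and *C4B*, paralogs that encode C4, the substrate of C1s. Their reads are hard to separate and the handling of shared reads is not given, so calls of both may rest on the same reads. *C4A* had 26 and 16 counts untreated, 37 and 37 under AX-0085, 317 and 435 under IFN-γ and 322 and 234 under both. *C4B* had 26 and 12, 37 and 38, 366 and 508, and 353 and 259 in the same order. The IFN-γ change was 4.47 for *C4A* and 4.84 for *C4B*, and in the presence of AX-0085 it was 2.86 and 2.98. Addition of AX-0085 to IFN-γ changed them by −0.72 and −0.80, short of 2-fold, and their interactions of −1.62 and −1.86 were called.

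Those lower with IFN-γ were the regulators *CLU* (−1.11), *SUSD4* (−1.58) and *CPN1*, the receptor genes *ITGAX* (−1.47) and *CALR* (−2.00), and *CFD* (−1.29), the protease that activates factor B. *CPN1*, which inactivates anaphylatoxins, had 43 and 23 counts untreated and 0 in both IFN-γ libraries, and was at least 8.46-fold lower (with 3 counts in each IFN-γ library as the floor). *CLU*, which binds terminal complexes and was the most abundant of these, went from 561 and 542 CPM to 278 and 233. AX-0085 added to IFN-γ called 11 of the 23 higher and 0 lower, beside 16.5% and 8.28% of all genes. By the adjusted p alone 17 of the 23 passed, near the 66.5% of all genes, and 4 of those were lower. Among the 11 were *SUSD4* (3.87), *CFD* (2.51), *ITGAX* (2.07), *ITGB2* (1.94), *C4BPA* (1.70), *C5AR1* (1.54), *CLU* (1.26), *C1RL* (1.25) and *COLEC11* (1.03, edgeR adjusted p = 0.0430), together with *CFHR3*, 6.06-fold higher, and *CPN1*, at least 5.17-fold higher. With IFN-γ alone *SUSD4* had 6 and 4 counts, *ITGAX* 4 and 8, *C4BPA* 1 and 8 and *CFHR3* 4 and 1. Changes of these genes against that group, or of that group against untreated cells, are imprecise. *CFHR3* passed the filter on low counts only through the groups with AX-0085. Its calls as higher, here and with AX-0085 alone, are therefore tied to the filter.

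AX-0085 alone called 8 of the 23 higher and 1 lower. Higher were, among others, *SUSD4* (2.34), *CFHR3* (1.57), *C1RL* (1.46), *ITGAX* (1.45), *C4BPA* (1.30) and *C4B* (1.06), and *THBD* (−1.35), a cofactor in the control of clotting and complement, was the 1 lower. *CFHR3* has close paralogs, so its share of their reads is uncertain. It had 8 and 11 counts untreated, and *C4BPA* had 14 and 10. The 8 called higher and 1 called lower stand beside the 6.41% and 5.62% of all genes given above. With both agents against untreated cells, *C4B* (4.04), *C4A* (3.76), *SUSD4* (2.29), *C1RL* (1.46), *CSMD3* (1.31), *CFD* (1.22) and *COLEC11* (1.17) were among 8 that were higher and *CALR* (−1.27) was lower, beside 7.51% and 7.23% of all genes. *CSMD3* was called there from counts of 3 to 21 per library. With both agents against AX-0085 alone, *C4A* and *C4B* were higher and *CPN1* (−1.58) was lower, beside 1.79% and 1.73% of all genes. The interaction called 4 higher, of which *CFD* (1.64), *SUSD4* (1.53) and *CALR* (1.31) had counts in all groups, and *CPN1* was the other, beside 12.1% of all genes. That of *SUSD4* rests on 6 and 4 counts with IFN-γ alone. The interaction called 2 lower, *C4A* and *C4B*, beside 6.46%.

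**Figure D4:**
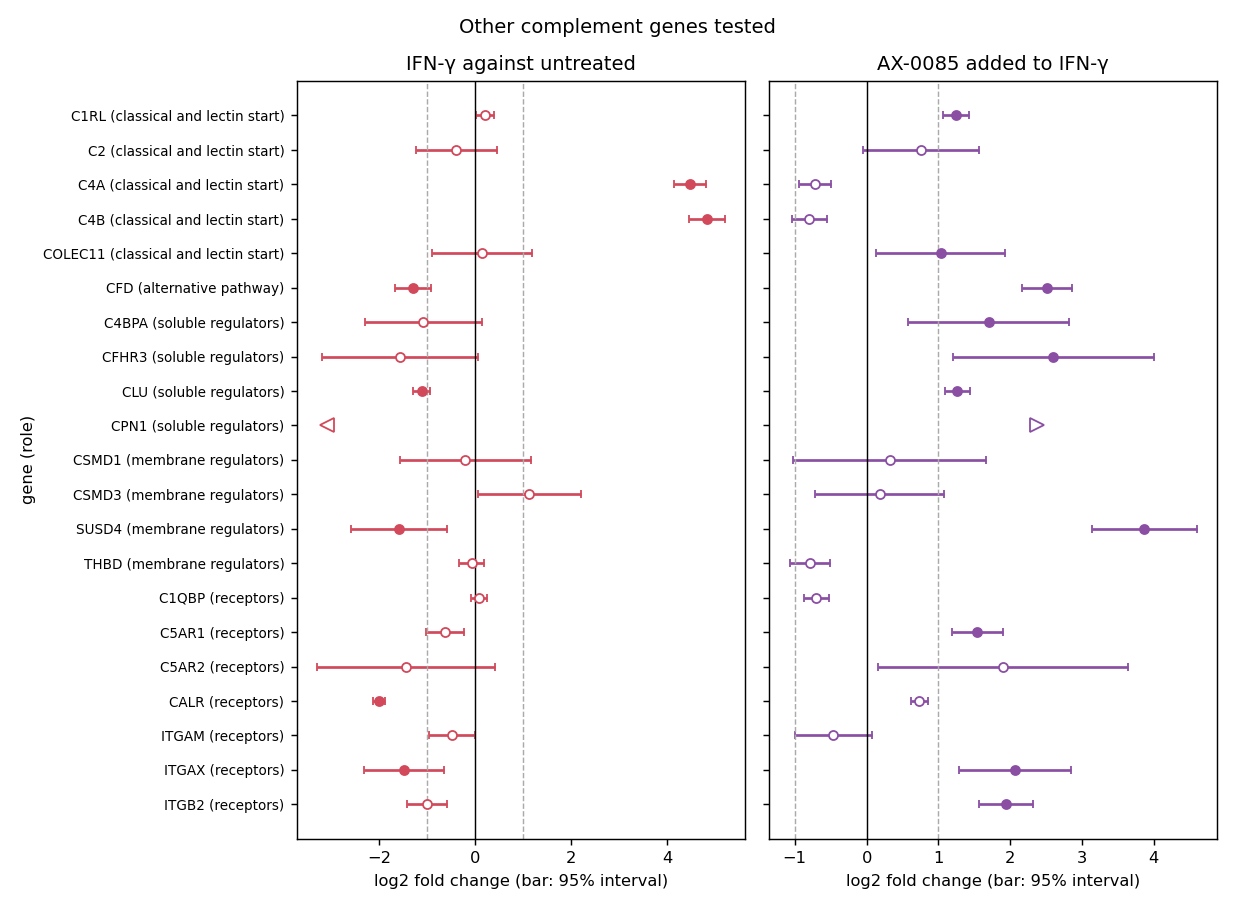
Log2 fold change (horizontal axes) of other tested complement genes (vertical axis, with their role) in the comparisons named in the panels, with bars for the 95% interval of the edgeR fit, filled points for called genes, dashed lines at 2-fold and triangles for the bounds of *CPN1*. *C4A* and *C4B* lie farthest to the right with IFN-γ, at 4.47 and 4.84, and no gene shown passes 2-fold to the left when AX-0085 is added to IFN-γ.

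The genes whose log2 CPM tracked each member most closely over the 8 libraries were found among 10167 genes, or 10168 for *SERPING1* and *CD59*, whose log2 CPM averaged at least 2. The values are descriptions, since the 8 libraries fall into 4 treatment groups that all genes share. They were *RPF2*, *TAPBPL* and *HSPA9* for *C1R* (Pearson r from 0.998 to 0.999), *STC2*, *YARS1* and *WWC3* for *C1S* (0.999), *LONP1*, *RAB3IL1* and *INTS15* for *C3* (0.995), and *APOL6*, *CIRBP* and *IFIH1* for *CD55* (0.998 to 0.999). For *CD46* they were *ABCC4*, *MEGF9* and *TSHZ1* (0.997 to 0.998), for *C5* *CNTNAP3C*, *PERP* and *KDM5D* (0.997 to 0.998), for *SERPING1* *ZNF592*, *ZNF329* and *ZSCAN29* (0.995 to 0.996), and for *CD59* *TOMM40L*, *PFDN1* and *PIGG* (0.969 to 0.978). Among the members themselves, *C1S* and *CD55* had r = 0.990, *C1R* and *C1S* 0.985, and *C5* and *CD46* 0.957, while *C3* and *C5* had −0.930.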

How the data were processed

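RNA of A549 cells was sequenced as stranded mRNA libraries. Per the paper's methods and the submitters' processing notes, the authors trimmed reads with Trim Galore 0.6.7, mapped them to GRCh38 with STAR 2.7.9a and counted them with featureCounts. They deposited raw counts per Ensembl gene, without normalization. The annotation release, strand setting and handling of shared reads are not given in the sources used here. All sample columns were used.

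Genes were filtered with filterByExpr, scaled with TMM and tested with the quasi-likelihood test of edgeR 4.0.16 (R 4.3.3), in 1 model of the 4 groups over all 8 libraries with Benjamini-Hochberg adjustment over 15066 genes. A call needed an adjusted p under 0.05 and an absolute log2 fold change of at least 1. The spread corresponded to a biological coefficient of variation of 0.0609. Within groups, the 2 libraries differed by more than counting noise (chi-square per degree of freedom of 9.34 to 30.7), so none was a copy of another.

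Positions and overlaps come from GENCODE 44, which matched 60463 of 60664 identifiers. Levels per kb use the main transcript. Named were the 9 members, other complement genes called at least once, *GBP1* and *CD274*, and the 3 genes most like each member. A few genes under this rule are left out here. *C2* and *MIR29B2CHG* were named after their values were seen. Members and lists were chosen with earlier results of these data known. On simulated counts for IFN-γ against untreated, edgeR called 93.5% of 200 changed genes among 15066, and DESeq2 1.42.0 called 88% of them. Neither called any other gene. In the measured libraries the same comparison had 1547 genes called higher and 2590 lower. The rate of wrong calls at such numbers was not tested. Alternatives were DESeq2, its RLE size factors, library size alone, other filters, fits limited to the compared groups, calls by adjusted p only, a replicate block and leaving out each library. A block with the untreated numbers swapped was chosen after seeing the data.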

Additional observations from a re-analysis of the deposited data

Results flagged for a closer look

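A closer look is due to 4 members for which the effect of IFN-γ differed between cells with and without AX-0085, as tested by the interaction term of the edgeR fit. The interaction was −2.22 on the log2 scale for *C1S*, where the IFN-γ change was 3.33 without and 1.12 under AX-0085. For *C1R* it was −1.93, from 3.37 to 1.44. *CD55* had −1.68, from 2.11 to 0.42. *SERPING1* had −3.53, from 8.25 to 4.73, and the value rests on 2 counts in the untreated and 7 in the AX-0085 libraries. In all 4 genes the 2 libraries with both agents lay below the 2 with IFN-γ alone. Cells with both agents had IFN-γ for 24 h before AX-0085, and what lies behind these differences was not tested.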

How the results depend on the processing

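Of 770 values of single members under the alternatives, 734 kept their direction and their side of the threshold, 11 fell short of a call, 19 gained one and 6 changed sign. Calls by adjusted p only reuse the main fit, so they could only stay or gain a call. They gave 34 of the kept values and 14 of the gained ones. Members that a filter removed are not among the 770. The count of members called with AX-0085 alone, 1 in the report, was 0 with DESeq2, 0 under a filter of 10 counts per library and 6 with the adjusted p alone. It ran from 0 to 2 when 1 library was left out: 0 without AX-0085 replicate 2, where *CD59* was lost, and 2 without untreated replicate 1, where *C5* was added. For both agents against untreated cells it was 3 under the same filter, which leaves 6 members to test. The small changes that turned sign were those of *C1R* with AX-0085, 0.00095 without untreated replicate 2 and 0.037 without AX-0085 replicate 1 (range −0.12 to 0.037), and those of *CD59*. For *CD59* with both agents against AX-0085 the value was −0.36 without AX-0085 replicate 2 and −0.45 without the first library with both agents (range −0.45 to 0.87), and for its interaction −0.022 and −0.15 in the same order (range −0.15 to 1.20). None of these was called in any fit. The interaction of *SERPING1* ranged from −6.56 to −2.75 as single libraries were left out.

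Scaling by library size alone moved the median of all genes by −0.12 on the log2 scale with IFN-γ against untreated, by 0.12 for AX-0085 added to IFN-γ and by 0.12 for the interaction, and members moved with it. The share of calls that were higher went from 37.4% to 30.4% in the first of these and from 66.6% to 74.3% in the second. Over all genes, both agents against AX-0085 called 530, against 314 with DESeq2 and 245 under the filter of 10 counts. That filter gave 1089, 2403 and 1385 calls for AX-0085 alone, for AX-0085 added to IFN-γ and for both agents against untreated, and 1812, 3733 and 2222 were called without it.

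With the replicate number as a block, the members called numbered 6 for IFN-γ, 1 for AX-0085, 6 for AX-0085 added to IFN-γ, 5 and 5 for both agents against AX-0085 and untreated, and 4 for the interaction, and no member changed its call at 2-fold. *CD46* with both agents against AX-0085 no longer passed the adjusted p (0.0567). Over all tested genes, deviations from the group mean correlated weakly between libraries of the same number (from −0.109 to 0.0873). The main fit does not pair them. With 2 libraries per group, such correlations cannot exclude a batch shared by libraries of the same number. Column headers start with A for each replicate 1 and with B for each replicate 2, and what the letters stand for is not given. With the untreated numbers swapped, the block called 6, 1 and 5 members against untreated cells. Low counts limit *CFB*, *CD59* and the untreated level of *SERPING1*. Whether depth or the counting of shared reads keeps *CFB* or *CD59* low was not tested. Having 2 libraries per group limits every comparison.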

Other observations

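*C1RL*, the neighbour of *C1R*, was singled out after its values were seen. Its IFN-γ change was 0.21 without AX-0085 (95% interval 0.02 to 0.40) and −9.39e-05 with it (95% interval −0.17 to 0.17), and its levels lay between 58.1 and 61.2 CPM in the 4 libraries that received AX-0085, against 20.4 to 26.1 CPM in the 4 that did not. *C1R* gave 3.37 and 1.44 in the same comparisons, which share no library with each other.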
